A study of Mus musculus with 7 samples.

Results

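The cytosolic ribosome is built from a small subunit, which decodes the mRNA, and a large subunit, which joins the amino acids, and its protein part is encoded by the Rps and Rpl genes. Their mRNAs belong to the most abundant of a cell and typically start with a pyrimidine run, the 5′ terminal oligopyrimidine (TOP) tract, through which mTORC1 and LARP1 set their translation. Quiescent stem cells such as satellite cells are known for low protein synthesis, and the amount of a ribosomal protein mRNA says nothing on how much of it is translated.

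The genes described here were all those whose array name was Rpl or Rps with a number (with the suffixes a, l, x or y), Rplp0 to Rplp2, or Rpsa. There were 84 such genes among 36406 names, 52 of the large and 32 of the small subunit, and they were read by 184 of 55681 probes. A probe was tested where its signal was well above background on at least 3 of 7 arrays, which held for 181 of the 184 probes and for 82 of the 84 genes (50 large, 32 small). The 2 genes that did not pass, Rpl3l and Rpl39l, had 1 probe each, and no array showed it well above background.

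The cells were satellite cells, which regenerate skeletal muscle. They had been sorted from unchallenged muscle of male C57BL/6 mice as integrin α7+ and CD34+ cells that lacked CD31, CD45, CD11b and Sca1. Geriatric mice were aged 28, 28, 29 and 30 months on arrays 1 to 4, and young mice 2, 2 and 3 months on arrays 1 to 3. Both groups came from 1 strain and 1 sex with no treatment, their RNA was amplified by a whole-transcriptome method for small cell numbers, and the labels do not say whether a sample was 1 mouse or several. P-values therefore rest on the spread between these samples, which may be partly technical. The test used, limma, also draws each gene's spread toward that of all tested features.

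The descriptions of geriatric arrays 1 and 2 give 1 and the same sample name, while the titles count 2 replicates. They correlated at r = 0.992 over the tested features, against 0.914 to 0.954 for all other pairs of arrays, and their mean was used as 1 sample, so that 3 geriatric samples (the shared sample, replicate 3 and replicate 4) were compared with 3 young samples. Signals are log2 of the processed intensity relative to the 75th percentile of the same array, which was 1330 to 1612 intensity units, and 38052 to 41293 probes per array were well above background. All 10 satellite cell markers on the list (Pax7, Myf5, Itga7 and others) were well above background on all 7 arrays, and their log2 summed signal was 7.09 to 7.20 on geriatric arrays and 7.03 to 7.27 on young arrays. The log2 sum of the 8 tested markers of fibro-adipogenic progenitors, of 9 on the list, was 5.41 to 5.68 on geriatric and 5.01 to 5.41 on young arrays. Of the 9, 6 to 8 were well above background on geriatric and 7 to 8 on young arrays.

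No ribosomal protein gene passed the test between geriatric and young cells, in either subunit (limma, adjusted p under 0.05). Over all 27398 tested features 7 passed, which is 0.0255% (0.0109% higher and 0.0146% lower). Most ribosomal protein genes nevertheless lay on the same side: 70 of 82 were lower in geriatric cells, against 50.4% of all tested features, with a median log2 difference (geriatric minus young) of -0.080 against -0.0032 for all features. In the large subunit 41 of 50 were lower, with a median of -0.059, and in the small subunit 29 of 32, with a median of -0.10. These genes share their libraries and moved together from sample to sample, so that their number adds no replicates. The split depends on the scaling of the arrays: 54 of 82 were lower after cyclic loess, 56 after quantile normalization, 66 in the authors' value table and 80 when arrays were scaled to their median, a scaling that also put 61.0% of all features lower.

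**Figure D1:**
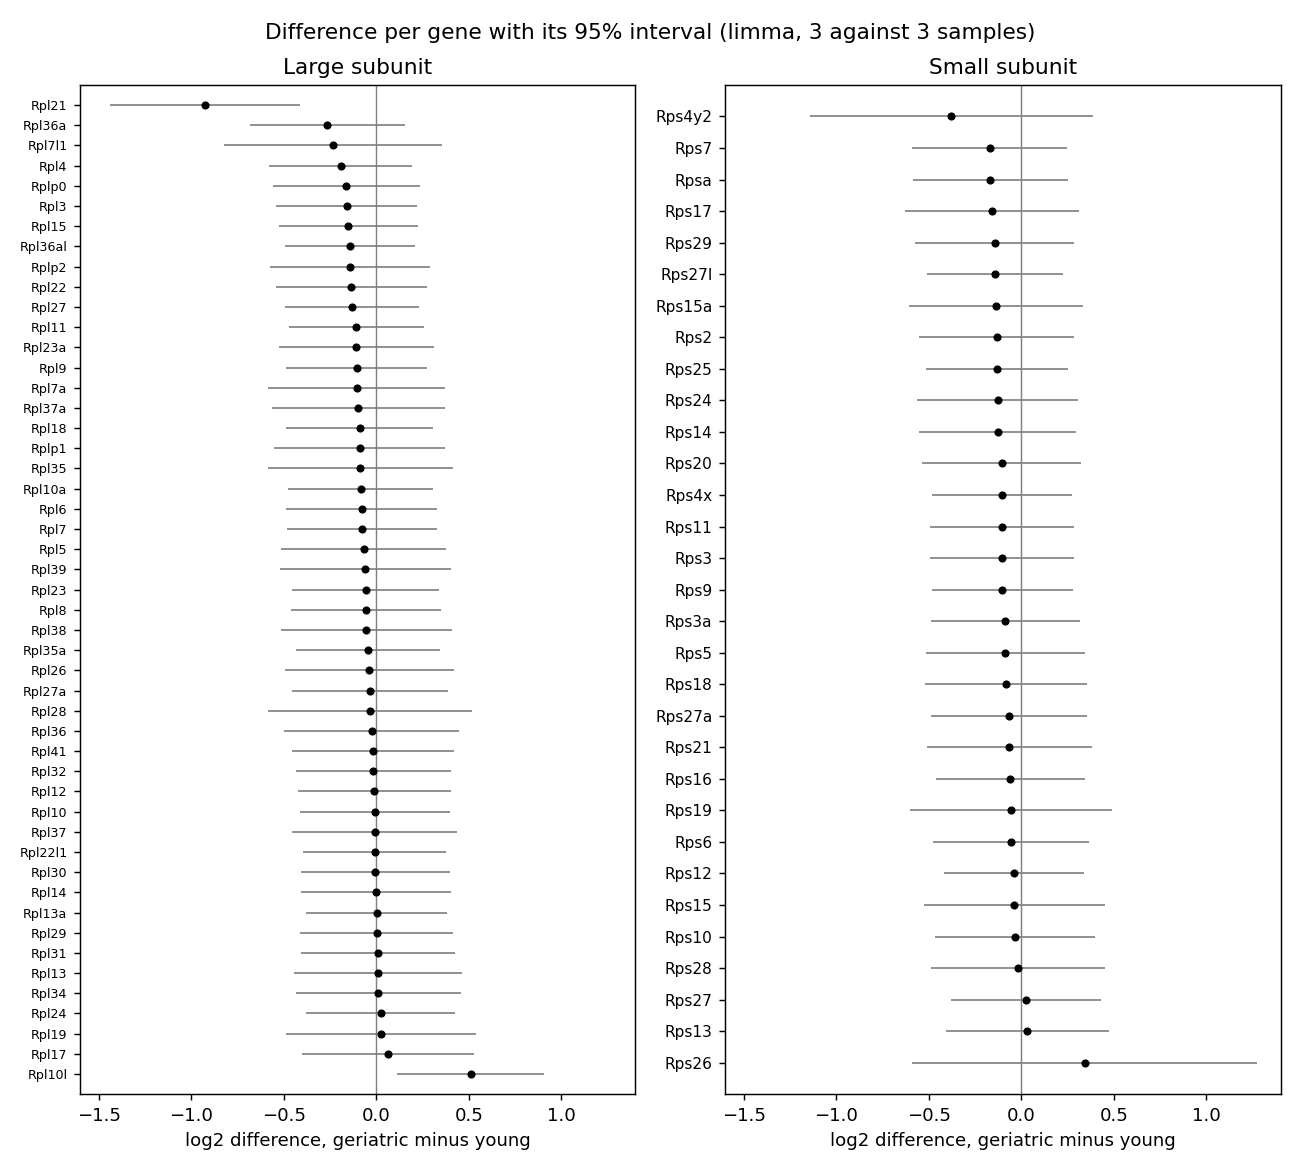
Log2 difference of 80 tested ribosomal protein genes, geriatric minus young, with its 95% interval from limma (horizontal lines), for the large subunit on the left and the small subunit on the right, with genes ordered by difference. The intervals of the genes shown hold 0 except those of Rpl21 and Rpl10l, which lie at -0.93 and 0.51.

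The intervals set a limit on the size of a difference. For 79 of 82 genes the 95% interval lay within 2-fold either way and for 71 within 1.5-fold. At an unadjusted limma p under 0.05, 1 gene was lower (Rpl21) and 1 higher (Rpl10l), against 7.23% of all features in either direction (2.82% lower, 4.41% higher). These shares are not like for like. The fit draws the small spread of these genes (median SD 0.14) toward that of all features (0.36), which raises their SE. Rpl36al, for example, had an SD within groups of 0.034 and an SE of 0.14. Small differences then seldom reach this p, however close the samples of a group lie. The 3 geriatric samples lay below all 3 young samples in 5 genes, Rpl21, Rpl3, Rpl36al, Rpl27 and Rps27l (5.68% of all features did), and above them in 1, Rpl10l (7.15%). Rpl27 was named after its values were seen.

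Ribosomal protein probes were among the brightest of the array. The median signal of the 82 genes was 5.64, at the 98.5th percentile of all tested features by signal, and 78 of them had a signal above 3. Probe signals also depend on the probe and are not levels of mRNA that can be ranked between genes. Within these 78, differences ran from -0.26 to 0.34 and 67 were lower, and the smallest limma p was 0.174 (adjusted p = 0.810). Rps16, a protein of the decoding subunit, had the highest signal, 7.02, 7.13 and 7.32 in the shared geriatric sample, replicate 3 and replicate 4, against 7.25, 7.28 and 7.13 in young samples 1 to 3. The groups of Rps16 overlapped, with geriatric replicate 4 the highest and the shared geriatric sample the lowest of all, and the difference was -0.059 (SE 0.16, adjusted p = 0.966). This order of samples recurred in most genes of both subunits.

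Geriatric replicate 4 was the highest of the geriatric samples in 76 of 82 genes and the highest of all 6 samples in 51. The shared geriatric sample was the lowest of all 6 in 57 genes. Relative to each gene's own mean over the 6 samples, the median ribosomal protein gene lay at -0.17 in the shared geriatric sample, -0.073 in replicate 3 and 0.16 in replicate 4, against 0.086, 0.051 and -0.034 in young samples 1 to 3. The same medians over all tested features were between -0.013 and 0.040. By subunit the values were nearly alike: -0.17, -0.072 and 0.16 in geriatric and 0.067, 0.051 and -0.034 in young samples for the large subunit, and -0.18, -0.077 and 0.16 in geriatric and 0.10, 0.051 and -0.029 in young samples for the small subunit. Both groups thus held samples above and below the mean of the genes.

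**Figure D2:**
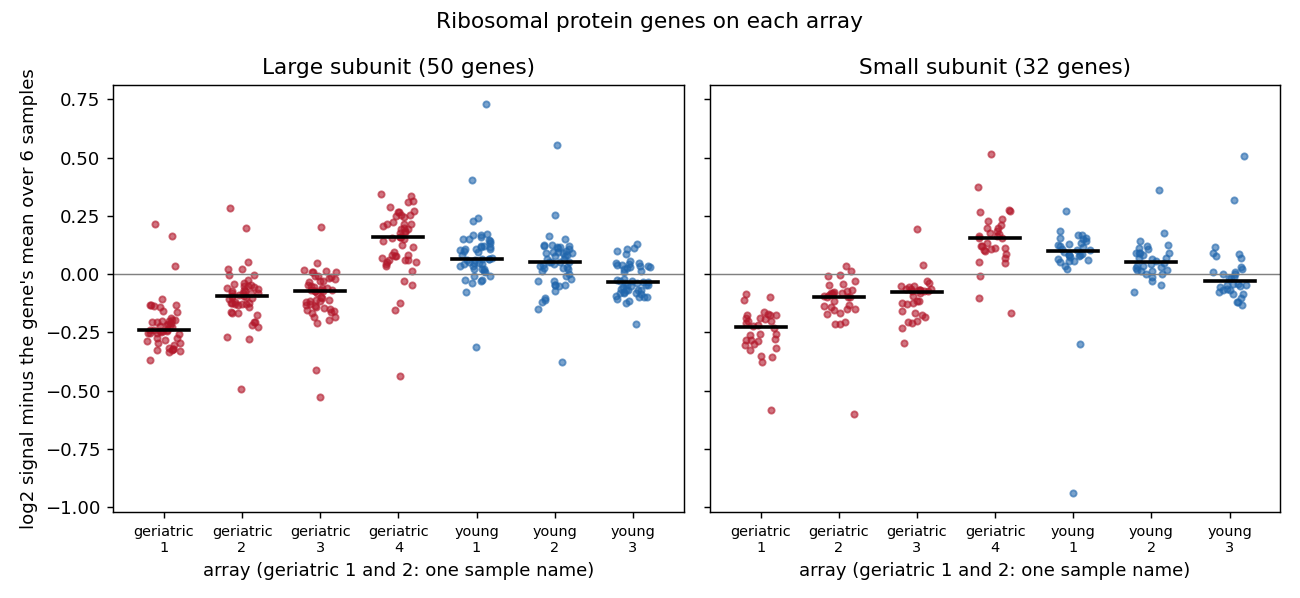
Log2 signal of each ribosomal protein gene on each array minus the gene's mean over the 6 samples, large subunit on the left and small subunit on the right, geriatric arrays in red and young arrays in blue. Points are genes and black bars medians. Geriatric array 4 has the highest median and geriatric array 1 the lowest, and the young arrays lie between them.

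The spread among geriatric samples was wider than among young samples. The median SD over the 82 genes was 0.18 in geriatric and 0.084 in young samples (n = 3 each), and the geriatric SD was the larger in 68 genes. The gap between geriatric replicate 4 and the shared geriatric sample had a median of 0.33, and in 75 of 82 genes it was larger than the difference between the groups. For comparison across the array, the SD within groups had a median of 0.14 for ribosomal protein genes and 0.36 for all tested features.

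The 2 arrays that share a sample name also differed in these genes. Array 2 was above array 1 in 79 of 82 genes, and array 1 minus array 2 had a median of -0.13, whereas the median absolute difference of these arrays over all tested features was 0.087. The gap between these arrays was therefore larger than the median difference of -0.080 between the age groups. Array 1 lies in row 1 of the slide beside the 3 young arrays and array 2 lies in row 2 with geriatric arrays 3 and 4, by the position in the files (the description of array 2 gives the same row but another column). With row as a block, or within row 1, the median difference was -0.25 in the large and -0.27 in the small subunit, a comparison in which array 1 is the 1 geriatric array. Without arrays 1 and 2, 43 of 82 genes were lower, with medians of 0.015 in the large and -0.028 in the small subunit. Without array 4, 80 of 82 were lower, with medians of -0.16 and -0.19.

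How far the arrays stand apart in ribosomal protein genes depends on their scaling. After quantile normalization the median large-subunit gene lay at -0.062, -0.084, 0.0013 and 0.055 on geriatric arrays 1 to 4 and at 0.017, 0.0052 and 0.022 on young arrays 1 to 3. In the authors' value table it lay at -0.072, -0.087, -0.014 and 0.041 on the geriatric and 0.024, 0.0093 and 0.043 on the young arrays. Geriatric arrays 1 and 2 were then the lowest in both subunits and close to each other, and array 4 led the young arrays by less or, for the large subunit in the authors' table, not at all. The medians between the groups were -0.026 and -0.060 (large and small subunit) after quantile normalization, and -0.016 and -0.061 after cyclic loess.

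**Figure D3:**
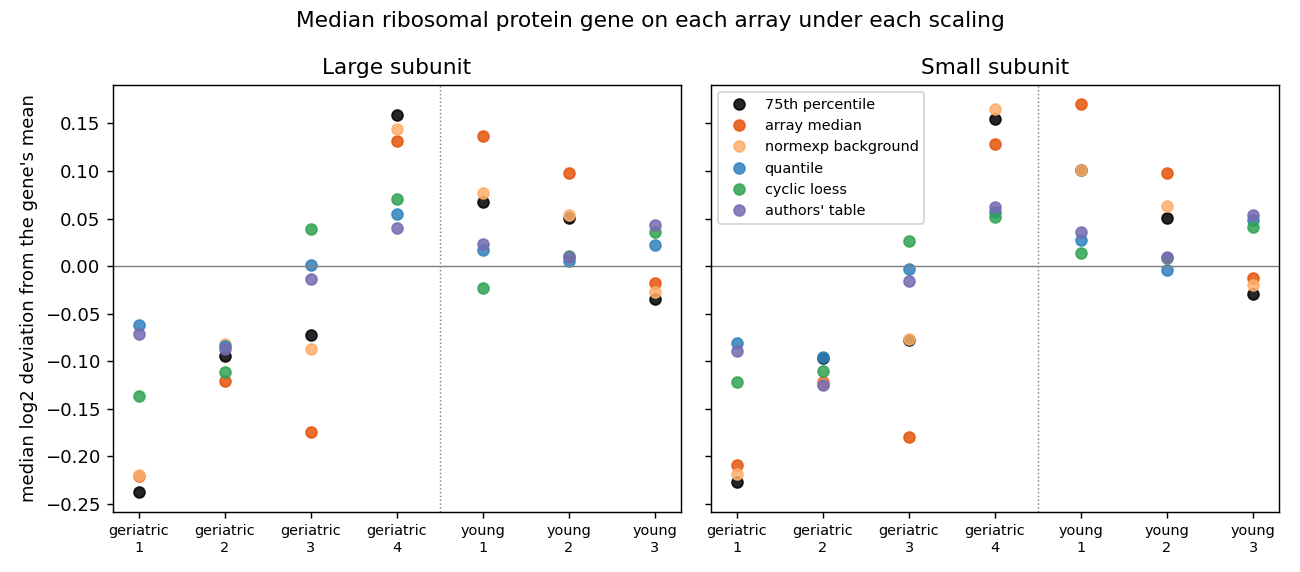
Median deviation of the ribosomal protein genes from their own means on each array, on the log2 scale, under 6 ways of scaling or background correction, with geriatric arrays left of the dotted line and young arrays right of it. Scaling to the 75th percentile puts geriatric array 1 at -0.24 and array 4 at 0.16 in the large subunit, and quantile normalization at -0.062 and 0.055.

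Markers of other cell types also differed among the arrays. On geriatric array 4 the 6 tested endothelial markers lay at a median of 1.02 above their own means, against -0.17 in the shared geriatric sample, -0.15 in replicate 3 and -0.00077 to 0.078 in young samples. All 7 listed endothelial markers were well above background on it, against 4 to 5 on the other geriatric arrays and 6 on each young array. The 8 tested myofibre markers lay at 0.64 there and the 7 tested macrophage markers at 0.51. Most of these markers were dim, with median signals of -4.08 (endothelial), -2.77 (myofibre) and -3.76 (macrophage), and dim signals have more noise. When summed, the tested endothelial markers did not put array 4 highest: they were at 3.55, 3.62, 3.08 and 3.39 on geriatric arrays 1 to 4 and at 2.95 to 3.26 on young arrays. The sums of the tested myofibre markers were 1.82 to 2.97 on geriatric and 1.93 to 2.48 on young arrays. Those of the tested macrophage markers were 6.46 to 6.84 and 6.52 to 6.66, and array 4 was the highest in both lists. Markers of fibro-adipogenic progenitors had the largest median difference of these lists, 0.92 over 8 tested markers. Of these 8, 6 were higher, 3 at an unadjusted limma p under 0.05 (4.41% of all features were), and 0 passed the test. They lay at a median of 0.15 in the shared geriatric sample, 1.31 in replicate 3 and 0.56 in replicate 4, against -0.46, -0.32 and -0.18 in young samples 1 to 3. They were thus highest in replicate 3, where ribosomal protein genes lay below their means. The part of these cells in the ribosomal protein signals was not tested, and in sorted bulk cells a change in the share of a cell type and in its RNA per cell cannot be told apart.

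In the large subunit, genes of known roles differed by -0.16 to -0.0076. Rplp0, the base of the stalk that recruits elongation factors, was at 5.43, 5.47 and 5.65 in geriatric and 5.76, 5.72 and 5.55 in young samples, a difference of -0.16 (SE 0.16, adjusted p = 0.889). Its partners in the stalk, Rplp1 and Rplp2, differed by -0.090 (SE 0.19) and -0.14 (SE 0.18). Rpl5 and Rpl11, which with 5S rRNA form a particle that can bind Mdm2 and so raise p53, differed by -0.068 (SE 0.18) and -0.11 (SE 0.15). Rpl10, whose late joining completes the large subunit, was at 6.25, 6.38 and 6.56 in geriatric and 6.41, 6.48 and 6.32 in young samples, a difference of -0.0076 (SE 0.16). The groups overlapped in all these genes, and no adjusted p was below 0.889.

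Among the other large-subunit genes with the smallest p, Rpl36a was at 4.53, 4.67 and 4.86 in geriatric and 4.92, 5.07 and 4.85 in young samples, a difference of -0.26 (SE 0.17, limma adjusted p = 0.810). Its lowest young sample lay just under its highest geriatric sample. Rpl4, a protein of the exit tunnel, differed by -0.19 (SE 0.16). Rpl3, which lies near the peptidyl transferase centre, was at 5.29, 5.54 and 5.49 in geriatric and 5.59, 5.65 and 5.57 in young samples, a difference of -0.16 (SE 0.16, adjusted p = 0.886). The groups of Rpl3 did not overlap, but by a gap smaller than the spread within either. On the higher side were Rpl17 at 0.064, Rpl19 at 0.027 and Rpl24 at 0.023 (SE 0.16 to 0.21), each of which turned negative when arrays were scaled to their median. The brightest large-subunit probes were those of Rpl41, Rpl10 and Rpl10a, whose differences were -0.018, -0.0076 and -0.085.

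In the small subunit, Rps6, the target of S6 kinase, was at 5.69, 5.80 and 6.05 in geriatric and 5.96, 5.94 and 5.81 in young samples, a difference of -0.055 (SE 0.17, limma adjusted p = 0.971). Rps27a, made as a fusion with ubiquitin, differed by -0.066 (SE 0.17). Rpsa, also known as the laminin receptor, differed by -0.17 (SE 0.17) and Rps7 by -0.17 (SE 0.17), with adjusted p = 0.893 and 0.891. Rps13 and Rps27 lay at 0.033 and 0.026 and were, with Rps26, the 3 small-subunit genes that were higher. Rps15 and Rps9, the brightest after Rps16, differed by -0.038 and -0.10, and Rps19, a gene mutated in Diamond-Blackfan anaemia, by -0.056 (SE 0.22).

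Rps26, a protein at the mRNA exit channel, had the widest spread of the bright genes. It was at 5.36, 5.45 and 5.92 in geriatric samples, against 4.47, 5.51 and 5.73 in young samples 1 to 3. Young sample 1 lay about 1 log2 unit below the others, and the groups overlapped. The difference was 0.34 (SE 0.38, limma adjusted p = 0.904), and without young replicate 1 it was -0.042. Its 1 probe lies at mm9 chr10:128062300-128062359 on the minus strand.

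Several subunit genes have paralogues that are known from single tissues or that respond to stress. Rpl3l, the paralogue of Rpl3 in striated muscle fibres, and Rpl39l, the paralogue of Rpl39 in testis, stayed under that mark on all 7 arrays, whereas Rpl3 and Rpl39 were well above background on each of them. Rpl22 and its paralogue Rpl22l1 differed by -0.13 (SE 0.17) and -0.0073 (SE 0.16), and Rpl36al, paralogue of Rpl36a, by -0.14 (SE 0.14). Rpl36al was at 4.30, 4.28 and 4.33 in geriatric and 4.50, 4.43 and 4.42 in young samples, with no overlap and adjusted p = 0.888 by limma. Rps27l, a p53 target related to Rps27, was at 3.22, 3.20 and 3.16 in geriatric and 3.45, 3.28 and 3.27 in young samples, again with no overlap, and differed by -0.14 (SE 0.15, adjusted p = 0.899). Rpl7l1, paralogue of Rpl7, differed by -0.23 (SE 0.24) and Rps4y2, paralogue of Rps4x and named Rps4l in the reference, by -0.38 (SE 0.31). The canonical partners Rpl7, Rpl39 and Rps4x differed by -0.077, -0.059 and -0.11.

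Rpl10l, a retrogene of Rpl10 that is known from male germ cells, was the 1 ribosomal protein gene with higher signals in all geriatric samples. The probe that read it lies at mm9 chr12:67384868-67384927 on the minus strand, and its first 30 bases are shown because it carries the 1 higher value.
Rpl10l probe: accaagctgcagaacaaggagcacgtgatc
This probe was dim, at -2.948, -2.995 and -2.887 in geriatric samples, against -3.511, -3.574 and -3.278 in young samples. It was well above background on all 7 arrays, and its difference was 0.51 (SE 0.16), with an unadjusted limma p of 0.0201 and an adjusted p of 0.560. Another Rpl10l probe lies 406 bases 3′ of it. That probe was well above background on 0 of 7 arrays, had a mean signal of -7.74 and was not tested. The parent gene Rpl10 had a mean signal of 6.38. Whether the dim probe that was tested reads Rpl10l mRNA or that of Rpl10 was not tested. Of 7 listed germ cell markers 4 were tested, and 3 to 4 were well above background on geriatric and on young arrays. Of the 4 tested, 3 were higher in geriatric cells, 1 of them without overlap between the groups (7.15% of all features were), and 1 was lower, at -0.54. Their median difference was 0.72, and 0 passed the test. The log2 summed signal of the 4 was not higher in geriatric cells, at 0.50 to 0.97 on geriatric and 0.66 to 1.09 on young arrays. Their part in the Rpl10l signal was not tested.

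Rpl21, a large-subunit protein, had the smallest p. Both its probes were dim for a ribosomal protein gene, and the first 30 bases of each are shown because they give different answers. They lie at mm9 chr5:147648267-147648326 and chr5:147647577-147647636 on the plus strand.
Rpl21, 3′ probe: gagggttctctagaagtactacctgtctta
Rpl21, 5′ probe: ccttagactgtagtgtggggtttgctcatt
The brighter, 3′ probe was at -0.88, -0.97 and -0.88 in geriatric and 0.28, 0.11 and -0.34 in young samples. The groups did not overlap, the geriatric samples were close together, and the difference was -0.93 (SE 0.21), which is 0.526-fold, with an unadjusted limma p of 0.00462 and an adjusted p of 0.360. The 5′ probe was at -3.22, -3.20, -1.75 and -3.58 on geriatric arrays 1 to 4 and at -2.26, -3.41 and -2.75 on young arrays 1 to 3, with a difference of -0.038 (SE 0.56). It scattered too widely to bear on a difference of the size seen with the 3′ probe.

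Probes of 1 gene mostly gave the same answer. Of 55 genes with several tested probes, 6 had probes whose differences lay more than 0.5 apart, among them Rpl21, Rpl6, Rps15a and Rpsa, and 18 had probes of both signs. The median range of differences within a gene was 0.083. Tested as features of their own, 156 of 181 probes were lower in geriatric cells, against 50.9% of all 41261 tested probes. An unadjusted limma p under 0.05 was found for 3 of the 181, against 7.32% of all probes, and 0 passed after adjustment, against 0.0145%. The moderation of the spread by limma limits this comparison as well.

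**Figure D4:**
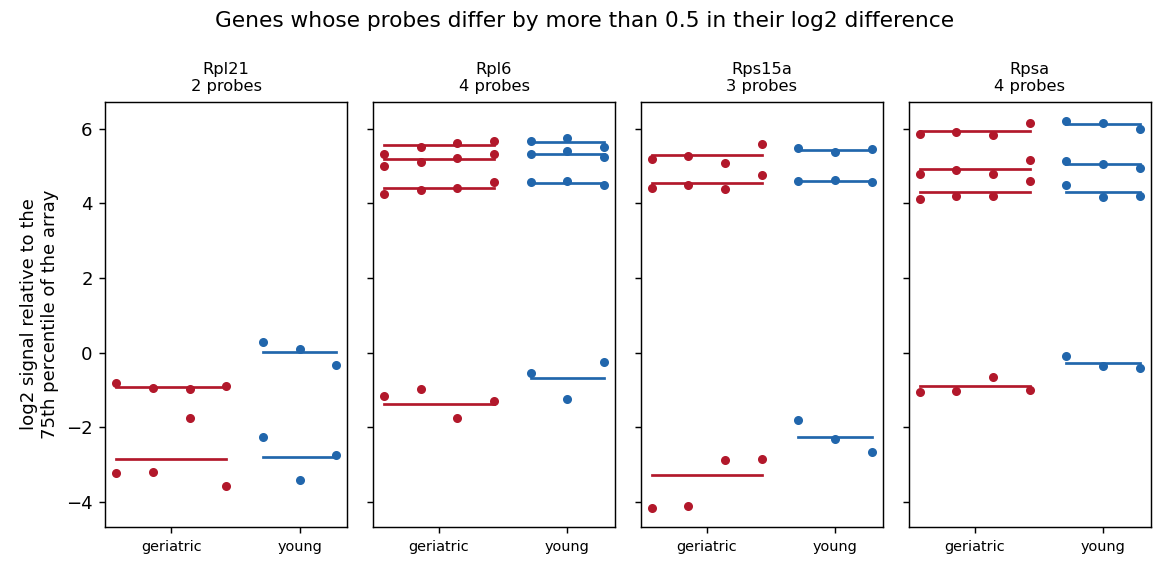
Log2 signal, relative to the 75th percentile of the array, of every tested probe of 4 of the genes whose probes disagree, with geriatric arrays 1 to 4 in red and young arrays 1 to 3 in blue. Lines are means over the 3 samples of a group, with geriatric arrays 1 and 2 averaged first. In Rpl6, Rps15a and Rpsa the disagreeing probe is the dimmest, and their bright probes run nearly level between the groups.

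Rps15a, a small-subunit protein, has the most discordant probe. Its 3 probes lie on the minus strand at mm9 chr7:125253453-125253512, chr7:125252644-125252703 and chr7:125248322-125248381, and the third is 5072 bases 3′ of the first.
Rps15a, probe 1: atttgatgttcaactcaaaggcctagagaa
Rps15a, probe 2: attgtgctgacaacctaggctggcatcatg
Rps15a, probe 3: gtgagtcagcagaaagtatagatagcaaag
Probes 1 and 2 differed by -0.14 (SE 0.20) and -0.069 (SE 0.18) between the groups. Probe 3 was at -4.15, -4.11, -2.87 and -2.86 on geriatric arrays 1 to 4 and -1.79, -2.31 and -2.66 on young arrays 1 to 3. Its groups did not overlap. The difference was -1.03 (SE 0.44, limma adjusted p = 0.689).

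The discordant probes of Rpsa and Rpl6 were dim as well. In Rpsa the bright probes differed by -0.17, -0.12 and 0.018, and a dim probe 118 bases 3′ of the brightest by -0.62 (SE 0.20, limma adjusted p = 0.577). That probe was at -1.07, -1.03, -0.67 and -1.01 on geriatric arrays 1 to 4 and -0.090, -0.36 and -0.40 on young arrays 1 to 3, without overlap. In Rpl6 the dim probe, 308 bases 3′, differed by -0.69 (SE 0.33) and the brighter ones by -0.079 to -0.13.

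This led to a count over all genes with several probes, made after these values were seen and therefore without a test. Of 99 further probes, beside the brightest of each gene, 13 in 13 genes were at least 3 log2 units dimmer than the brightest. Of these 13, 11 were lower in geriatric cells, with a median of -0.31 and a range of -1.03 to 0.31, against a median of -0.066 for the brightest probes of the same genes. The 10 dim probes that lie 3′ of the brightest were all lower, with a median of -0.38, and 1 of the 3 that lie 5′ was lower. These 10 include the dim probes of Rps15a, Rpsa and Rpl6 that had prompted the count. Of the other 86 further probes 75 were lower, with a median of -0.049. Dim signals have more noise, and whether such probes read the ribosomal protein mRNA itself, a longer 3′ end or other transcripts was not tested.

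**Figure D5:**
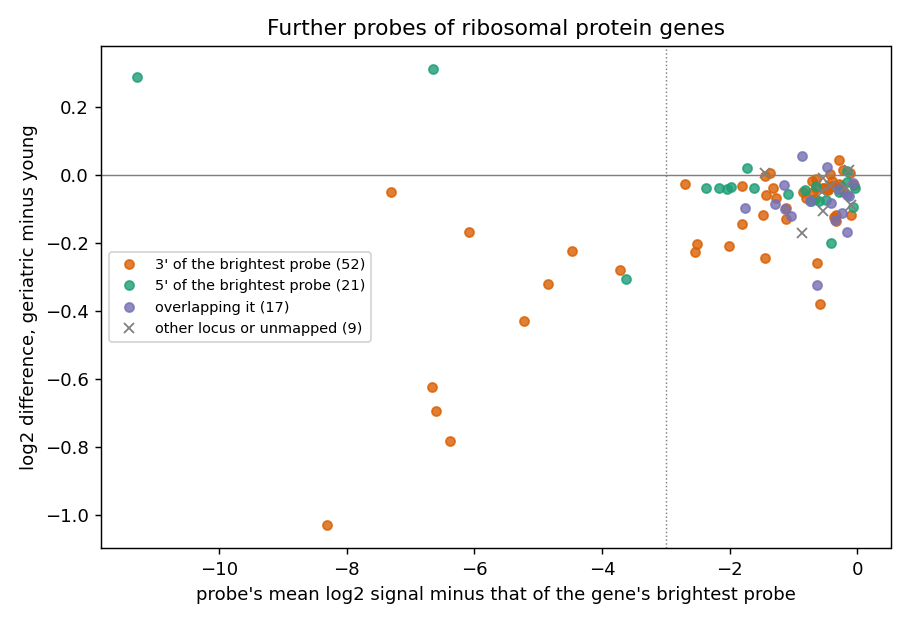
Log2 difference, geriatric minus young, of each further probe of a ribosomal protein gene against its mean log2 signal minus that of the gene's brightest probe, coloured by whether it lies 3′ or 5′ of that probe on the gene's strand. Left of the dotted line at -3 are the 13 dim probes, of which 11 lie below 0, and right of it the 86 others, which lie between -0.38 and 0.055.

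Ribosomal protein genes are known for processed copies elsewhere in the genome, and whether any probe reads such a copy was not tested. In the array's mm9 coordinates 12 probes of 6 genes (Rpl13, Rpl31, Rpl36, Rps27, Rps29 and Rps4x) lie on another chromosome than the gene in GRCm38.p6, and Rpl13, Rps27 and Rps29 were read by such a probe. These genes were listed after their values were seen. The 12 probes differed by -0.14 to 0.043, with a median of -0.0059, and 7 of 12 were lower. The 35 tested probes whose target is split over more than 70 bases of the genome, as across an intron, had a median of -0.059, and 30 of 35 were lower. These sets come from 6 and 31 genes and are not matched by gene, so that their medians do not compare the kinds of probe.

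Some annotated starts of ribosomal protein genes lie in the pyrimidine runs that the TOP class is named for. Windows of 15 bases before and after the start are shown for some of the longest runs of each subunit whose start base is C. They are also shown for Rps6 and for 3 paralogues whose start base lies in no such run (for Rpl3l the first of 2 listed starts). In Rpl22l1 the start base is G, and a run of C and T begins at the next base. Capitals mark the run of C and T that holds the start (RefSeq, GRCm38.p6).
Rpl35: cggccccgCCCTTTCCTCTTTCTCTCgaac
Rpl15: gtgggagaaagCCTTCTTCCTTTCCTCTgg
Rpl14: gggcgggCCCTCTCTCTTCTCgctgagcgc
Rps10: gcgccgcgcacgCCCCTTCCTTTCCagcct
Rps18: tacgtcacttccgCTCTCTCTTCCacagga
Rps6: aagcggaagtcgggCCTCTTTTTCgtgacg
Rpl22l1: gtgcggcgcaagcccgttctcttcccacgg
Rpl10l: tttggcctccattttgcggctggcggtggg
Rpl3l: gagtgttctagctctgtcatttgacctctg
The windows lie, with their strand, as follows: Rpl35 at chr2:39005117-39005146 (minus), Rpl15 at chr14:18270972-18271001 (minus), Rpl14 at chr9:120571502-120571531 (plus), Rps10 at chr17:27635230-27635259 (minus), Rps18 at chr17:33955651-33955680 (minus), Rps6 at chr4:86857353-86857382 (minus), Rpl22l1 at chr3:28805493-28805522 (plus), Rpl10l at chr12:66284387-66284416 (minus), Rpl3l at chr17:24727811-24727840 (plus). A promoter was on hand for 62 of the 84 genes. The start lay in a run of at least 5 pyrimidines on the sense strand in 20 of the 62, which is 32.3%, against 11.8% of 27025 genes. On either strand of the window of 250 bases before to 50 after the start, CTTTCC, which can overlap such a run, occurred in 54.8% against 29.3% of all genes, and CCGGAAG, the core of ETS family sites, in 40.3% against 9.93%. The median difference between geriatric and young cells was -0.057 for the 20 tested genes with the run and -0.074 for the 40 tested genes without it.

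Most differences were also below 0 among translation factors, other TOP mRNAs and, as a comparison, the proteins of the mitochondrial ribosome, and none passed the test. Of 14 translation factors and other TOP mRNAs 11 were lower, with a median of -0.12, and Npm1, a nucleolar chaperone, differed by -0.30 (SE 0.19). Of 76 mitochondrial ribosomal proteins 58 were lower, with a median of -0.15. These lists were chosen with earlier results known, and their counts, like those of the ribosomal proteins, rest on the same 6 samples.

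The genes that make ribosomes differed among samples in another order. Of 59 ribosome biogenesis factors 49 were lower in geriatric cells, with a median of -0.22, and of 15 genes of RNA polymerase I and its factors 12 were lower, with a median of -0.16. Nvl, an ATPase of large-subunit assembly, was at 1.77, 1.79, 1.91 and 1.82 on geriatric arrays 1 to 4 and 2.51, 2.30 and 2.42 on young arrays 1 to 3, without overlap, and differed by -0.57 (SE 0.15, limma adjusted p = 0.487). Mdn1, a related assembly ATPase, differed by -1.13 (SE 0.32, adjusted p = 0.504). The median biogenesis factor lay at -0.066, -0.14 and -0.079 in the geriatric samples and at 0.30, -0.33 and 0.46 in young samples 1 to 3. Young sample 2 was thus the lowest in these factors, and geriatric replicate 4 did not stand above the other geriatric samples as it did in the ribosomal proteins. Of 16 genes of mTORC1 and TOP mRNA control, 11 were lower, with a median of -0.18, among them Mlst8, an mTORC1 subunit, at -0.38 (SE 0.18) and Larp4, an mRNA-binding protein, at -0.36 (SE 0.17), both with adjusted p = 0.738.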

How the data were processed

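RNA of satellite cells was measured on 7 Agilent 1-colour arrays (Cy3), 4 geriatric and 3 young, all on 1 slide. Per the file headers, the deposited intensity values are processed signals of Feature Extraction 10.7.3.1, from which background and spatial trends had been removed. The authors' deposited values are on a log2 scale, their normalization is not stated in the labels or the headers, and they served as an alternative only. Coordinates are those of the array files (mm9), and names, chromosomes and starts come from RefSeq tables of GRCm38.p6.

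Each processed signal was put on the log2 scale relative to the 75th percentile of its array over spots other than controls and outliers (124 to 229 outlier spots per array). No probe was saturated. Spots of a probe were averaged, and a gene was read by the tested probe with the highest mean signal. Differences, geriatric minus young, were fitted with limma 3.58.1 (lmFit and eBayes, R 4.3.3, data.table version 1.17.8) over all 27398 tested features with Benjamini-Hochberg adjustment, 2-sided, at an adjusted p of 0.05, and for probes over 41261 tested probes. The number of arrays limits the precision. The fit was tested on simulated data. Python 3.11.15 with pandas 2.3.3 and matplotlib 3.10.9 made the figures.

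The members and the lists of markers and pathways were chosen with earlier results of these data known. Genes named with values were, in each subunit, the 4 with the smallest p in each direction, the 3 brightest and the 3 dimmest, paralogues and their partners, genes with probes more than 0.5 apart, genes of fixed roles, and in each pathway list the 2 with the smallest p. Normexp background (offset 50), other scalings, filters, leaving out replicates, replicate numbers as a block and slide row were tried as alternatives. The medians per array under each scaling and the fit of every probe were added after the data had been seen. A few genes and 1 probe are not reported here by name.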

Additional observations from a re-analysis of the deposited data

How the results depend on the processing

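No ribosomal protein gene passed the test under any setting tried, and the smallest adjusted p of a member was between 0.128 and 0.807. The 7 features called over the whole array were 3 higher and 4 lower. Higher calls were 13 with normexp background, 11 with an intensity trend, 39 with geriatric replicates 1 and 2 as separate samples, and 1 without a filter on dim probes or with detection on all 7 arrays. Lower calls were 25 with the replicates separate, and 1 with the authors' table or with detection on all 7 arrays. With slide row as a block 0 were called in either direction and within row 1 0 were called higher. Leaving out 1 replicate gave 0 to 4 higher and 0 to 4 lower calls, and leaving out both arrays of the shared sample 1 higher and 0 lower. The replicate numbers do not pair the samples: deviations of same-numbered samples correlated at -0.043 to 0.045, and with the replicate block, by the numbers of the titles or of the sample names, 0 higher and 0 lower were called. The cause of these moves was not tested.

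The count of lower large-subunit genes, 41 in the main setting, was 23 without geriatric replicates 1 and 2. The median difference was -0.25 (large) and -0.27 (small) with slide row as a block and within slide row 1.

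Single genes near 0 changed sign. With normexp these were Rpl19 (-0.019), Rpl22l1 (0.032) and Rps13 (-0.021). With quantile normalization they were Rpl10 (0.036), Rpl22l1 (0.012), Rpl41 (0.018), Rps15 (0.00010) and Rps16 (0.0028), and with cyclic loess Rpl10 (0.034), Rpl22l1 (0.034), Rpl41 (0.023) and Rps15 (0.0024). With array median scaling they were Rpl17 (-0.024), Rpl19 (-0.062), Rpl24 (-0.066), Rps13 (-0.056) and Rps27 (-0.063). In the authors' table they were Rpl10 (0.0021), Rpl19 (-0.022), Rpl22l1 (0.054) and Rps13 (-0.022). When all probes of a gene were averaged they were Rpl17 (-0.034), Rpl24 (-0.0072), Rps13 (-0.0051) and Rps27a (0.061). With the geriatric replicates separate they were Rpl19 (-0.038), Rpl22l1 (0.0046), Rpl24 (-0.018) and Rps13 (-0.0049). With the replicate block by titles they were Rpl17 (-0.083), Rpl19 (-0.14), Rpl24 (-0.055), Rps13 (-0.070) and Rps27 (-0.044). With slide row, as a block or within row 1, they were Rpl17 (-0.29), Rpl19 (-0.31), Rpl22l1 (0.033), Rpl24 (-0.23), Rpl7l1 (0.045), Rps13 (-0.18) and Rps27 (-0.097).

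Without 1 replicate in turn the differences ran from -0.13 to 0.044 for Rpl41, -0.18 to 0.029 for Rps15, -0.042 to 0.59 for Rps26, -0.089 to 0.032 for Rpl10, -0.14 to 0.087 for Rpl19, -0.064 to 0.048 for Rpl22l1, -0.092 to 0.082 for Rps13, -0.060 to 0.065 for Rps27, -0.069 to 0.052 for Rpl24, -0.21 to 0.010 for Rpl39, -0.26 to 0.030 for Rps19 and -0.076 to 0.10 for Rpl17. Without both arrays of the shared geriatric sample (replicates 1 and 2) the sign turned in Rpl10 (0.065), Rpl39 (0.021), Rpl41 (0.037), Rpl5 (0.051), Rplp1 (0.028), Rps15 (0.059), Rps16 (0.0090), Rps19 (0.058), Rps27a (0.018) and Rps6 (0.024). All other differences of the named genes kept their sign under the settings run. All 82 tested genes were well above background on all 7 arrays. The moderation by limma raised the SE of genes with a small spread, and what else limits the calls among them was not tested.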
